A study of Mus musculus with 9 samples.

Results

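The 45 genes described here encode nuclear-encoded subunits of the mitochondrial respiratory chain and ATP synthase, a few of their assembly factors, the SLC25 metabolite carriers of the inner membrane, and the TIM and TOM machinery that imports proteins into mitochondria. They were taken by name, as every gene whose symbol begins with Nduf, Sdha to Sdhd, Uqcr, Cox4 to Cox8, Cox1 followed by a digit, Atp5, Slc25a, Timm or Tomm, or equals Cyc1 or Cycs. This gave 45 of the 2996 genes of the table, and the rule itself uses no measured value. By role they were 9 complex I subunits, 1 complex I assembly factor, 2 complex II subunits, 1 complex III subunit, 4 complex IV subunits, 1 complex IV assembly factor, 5 ATP synthase subunits, 12 carriers, 6 TIM genes and 4 TOM genes. Other genes of these families, and all genes of the mitochondrial genome, were not analysed here.

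Messenger RNA was sequenced from perfused brain tissue of mice described as 24 months old. Group H drank water with 50 µg per litre of PFOS (perfluorooctane sulfonate, a long-lived surfactant built on a fluorinated carbon chain) over 7.5 months. Group L drank water with 0.5 µg per litre of PFOS over 7.5 months. Group C is the comparison group, and no PFOS dose is stated for it. Each group held 3 libraries, named H1 to H3, L1 to L3 and C1 to C3. The labels used here name no strain, sex or brain region, and all animals were kept under SPF (specific pathogen free) conditions. Nothing states that the libraries came from separate animals, so the p-values reflect the spread among libraries alone, and that spread may be technical.

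Levels are in FPKM, fragments counted per unit of gene length and of library size. The library denominators recovered from the values were 15371513 (C3) to 20431208 (H1) reads, of which the table held 3008813 to 4153307. The 45 genes took 0.983% (C3) to 1.34% (L2) of the reads in the table. Libraries differed in regional content, and C1 and L3 stood apart in cerebellar genes. The cerebellar granule cell gene Gabra6 was at 2.48 FPKM or less in every H library, at 14.8, 0.0603 and 55.0 FPKM in L1 to L3, and at 253.7 FPKM in C1, with 0 in C2 and C3. The 4 measured of 12 listed cerebellar markers summed to 44.1 to 91.2 FPKM in H, 35.5 to 262.2 FPKM in L and 32.1 to 871.2 FPKM in C. Almost all of the sum was Pvalb in H2 (43.6 FPKM), H3 (51.4), L2 (35.3), C2 (82.2) and C3 (31.9). The listed markers Pcp2 and Ppp1r17 were at 0.490 FPKM or less in those libraries. The striatal genes Adora2a and Rgs9 (2 of 7 listed) summed to 2.67, 53.0 and 2.62 FPKM in H1 to H3, 57.05, 2.26 and 2.46 FPKM in L1 to L3, and 1.26, 22.1 and 24.97 FPKM in C1 to C3. L1 and H2 were the highest, with C2 and C3 between. Trh, 1 of the 5 measured of 8 listed hypothalamic markers, was at 29.1 FPKM in L1 and at 5.32 FPKM or less elsewhere. Nkx2-1 (3.24 FPKM), Agrp (1.02) and Sim1 (0.255) were also highest in L1, at low levels. Pomc was highest in H2 (1.22 FPKM). Stx1a, the 1 measured of 9 listed pallial markers, was at 61.02, 49.2 and 108.5 FPKM in H1 to H3, 27.1, 73.7 and 3.35 FPKM in L1 to L3, and 1.11, 92.3 and 82.7 FPKM in C1 to C3. Pan-neuronal markers (Eno2 and Map2, 2 of 10 listed) summed to 280.2 to 306.7 FPKM in H, 244.3 to 274.5 FPKM in L and 179.1 to 263.6 FPKM in C. Of 8 microglial and 6 muscle markers none is in the table analysed here. In such bulk tissue, fewer cells of a type and less RNA per cell cannot be told apart.

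The respiratory chain passes electrons from NADH (complex I) and succinate (complex II) through complex III and cytochrome c to oxygen at complex IV, and the proton gradient built on the way drives ATP synthase. Most subunits are encoded in the nucleus, made in the cytosol and imported through the TOM pore of the outer membrane and the TIM complexes of the inner membrane. SLC25 carriers then move nucleotides, carboxylates, amino acids and cofactors across the inner membrane. Neurons draw most of their ATP from this system. Nuclear respiratory factor 1 (NRF1), the ETS factor GABPA, YY1 and the estrogen-related receptor ESRRA are transcription factors known to bind promoters of such genes.

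Promoter sequences are shown as examples for 4 of the genes described below, chosen with their values known. Atp5g3, Sdhd and Ndufs3 were among the genes that followed the rest of the chain most closely from library to library, and Slc25a11 was the carrier with the smallest p-value. Each is the RefSeq window on GRCm38.p6 from 250 bases before to 50 bases after the annotated start, 5′ to 3′ on the strand of the gene. Capitals mark the palindromic NRF1 consensus, CCGGAAG (GABPA and other ETS factors), AAGATGGC (YY1) or AAGGTCA (ESRRA), read on either strand.
Atp5g3 (chr2:73911277-73911576, minus strand): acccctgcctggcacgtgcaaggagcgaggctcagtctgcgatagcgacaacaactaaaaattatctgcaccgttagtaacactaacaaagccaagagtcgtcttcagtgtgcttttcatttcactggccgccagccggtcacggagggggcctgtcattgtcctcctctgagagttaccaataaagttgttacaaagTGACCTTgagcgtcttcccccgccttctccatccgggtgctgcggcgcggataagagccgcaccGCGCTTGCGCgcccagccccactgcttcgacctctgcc
Sdhd (chr9:50603800-50604099, minus strand): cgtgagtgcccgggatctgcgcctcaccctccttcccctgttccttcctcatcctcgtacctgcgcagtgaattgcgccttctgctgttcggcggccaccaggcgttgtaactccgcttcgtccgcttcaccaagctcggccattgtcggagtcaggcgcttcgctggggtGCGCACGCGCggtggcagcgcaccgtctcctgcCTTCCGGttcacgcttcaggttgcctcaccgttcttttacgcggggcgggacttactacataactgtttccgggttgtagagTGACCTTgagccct
Ndufs3 (chr2:90904672-90904971, minus strand): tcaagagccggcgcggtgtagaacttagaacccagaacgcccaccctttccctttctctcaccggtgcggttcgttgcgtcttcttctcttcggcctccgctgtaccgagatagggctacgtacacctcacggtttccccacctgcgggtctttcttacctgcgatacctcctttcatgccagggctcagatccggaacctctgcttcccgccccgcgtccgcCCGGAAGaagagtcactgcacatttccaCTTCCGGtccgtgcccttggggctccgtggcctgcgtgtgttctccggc
Slc25a11 (chr11:70646990-70647289, minus strand): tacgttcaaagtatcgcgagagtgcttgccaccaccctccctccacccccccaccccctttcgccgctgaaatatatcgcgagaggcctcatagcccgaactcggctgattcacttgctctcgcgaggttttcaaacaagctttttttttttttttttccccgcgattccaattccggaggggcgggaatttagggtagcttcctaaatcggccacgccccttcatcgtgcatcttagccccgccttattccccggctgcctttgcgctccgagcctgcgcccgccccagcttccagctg
The Atp5g3 window held 1 NRF1 and 1 ESRRA motif, that of Sdhd 1 NRF1, 1 ETS and 1 ESRRA motif, and that of Ndufs3 2 ETS motifs on opposite strands. The Slc25a11 window held none of these 4 motifs. Nor did those of Ndufa1 and Cox7c, which followed the mean of the other chain subunits closely (r = 0.95 and 0.92 over 9 libraries). Ndufb2 (r = -0.48) held an ESRRA motif and Atp5pb (r = 0.23) a YY1 motif, and neither followed it closely. The 4 windows are examples, and whether these motifs mark the genes of the shared course was not tested. The SP1 motif GGGCGG, which was not put in capitals, stood at 2 places in the Slc25a11 window, 2 in that of Ndufs3 and 1 in that of Sdhd.

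Over the whole set, 37 of the 45 genes matched an entry of the RefSeq promoter table, with 42 windows in all. At least 1 of the NRF1, ETS and YY1 motifs stood in 10 of 18 windows of respiratory chain subunits (55.6%), in 4 of 11 of import genes (36.4%) and in 0 of 11 of carriers. The same 3 motifs stood in 27.4% of the windows of all tested genes and in 14.7% of all 32851 windows of the table. ESRRA motifs stood in 4 of 18 chain windows (22.2%), 2 of 11 import windows and 0 of 11 carrier windows, against 2.75% of the windows of tested genes and 4.72% of all windows. SP1 motifs stood in 9 of 11 carrier windows (81.8%), 8 of 18 chain windows (44.4%) and 4 of 11 import windows (36.4%), against 64.8% of the windows of tested genes and 35.7% of all windows. Several windows belong to 1 gene, as Slc25a22 has 3, and GGGCGG may lie within other GC-rich motifs. A match is a description of letters and does not show binding.

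Respiratory chain subunits went up and down together from library to library, within the groups as well as between them. Over the 9 libraries the median correlation between pairs of the 21 chain subunits was 0.76, and 0.74 with group means removed. It was 0.40 between the 9 tested import genes, -0.02 between the 11 tested carriers and 0.04 between all 2226 tested genes. These are descriptions over 9 libraries that share depth and tissue content, with no test. The median was 0.80 among complex I subunits and 0.81 among ATP synthase subunits, but 0.40 among the 4 complex IV subunits. Mitochondrial ribosome genes (14 genes) had a median of 0.18, citrate cycle genes (6 genes) of 0.26 and glycolysis genes (6 genes) of -0.45. With any 1 library left out the chain value ran from 0.73 to 0.83, and it was 0.86 without C1 and L3.

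The order of the libraries on this shared course crossed the groups. Taking each gene's deviation from its own mean over the 9 libraries on the log2(FPKM + 1) scale, the median over the 21 chain subunits was 0.30, 0.22 and 0.00 in H1 to H3. In L1 to L3 it was -0.15, 0.27 and -0.18, and in C1 to C3 it was -0.23, 0.23 and -0.41. So L2 and C2 stood with H1 and H2, while C3, C1, L3 and L1 were low. Within H, H1 was the highest library for 16 of 21 subunits (76.2%, against 44.2% of all tested genes) and H3 the lowest for 19 (90.5%, against 44.3%). Within L, L2 was the highest for 17 (81.0%, against 37.7%), and within C, C2 was the highest for 18 (85.7%, against 33.1%) and C3 the lowest for 14 (66.7%, against 41.1%). C1 and C3 lay below every H library for 19 of 21 subunits, against 19.9% of all tested genes, but C2 lay above the lowest H library for 19 of 21, against 76.7%.

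**Figure D1:**
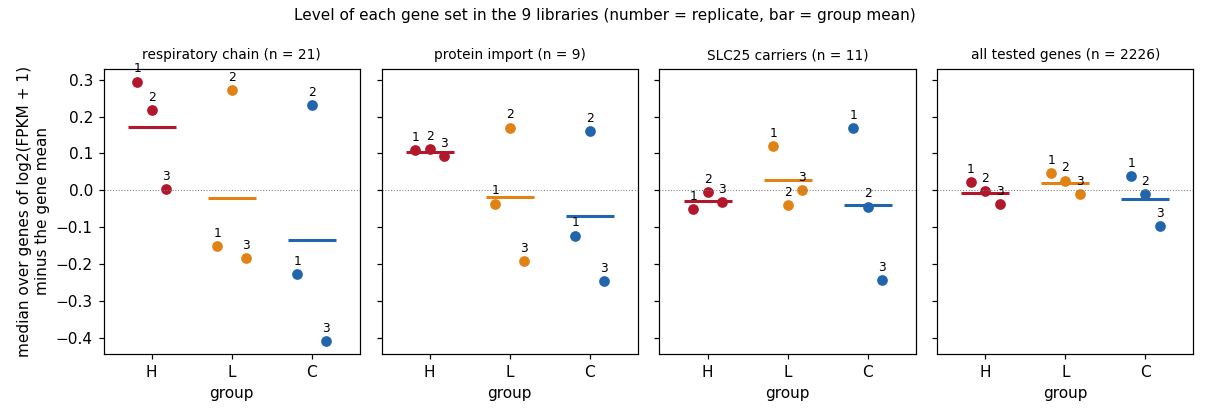
Median deviation from the mean over the 9 libraries (y axis, log2(FPKM + 1)) of respiratory chain subunits, carriers and import genes in each library (x axis, H, then L, then C). Chain subunits were highest in H1 (0.30), L2 (0.27) and C2 (0.23) and lowest in C3 (-0.41), while the carriers followed another order.

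Several library properties moved with this course, and their part in it was not tested. Read depth was largest in H1 (20431208 reads), L2 (19999722) and C2 (19263869), the libraries where chain subunits were highest in each group, and smallest in C3 (15371513), where they were lowest. Between these ends, the order by chain median differed from the order by depth only among H2 and H3 and among L1, L3 and C1. H3 (18926364 reads) was deeper than H2 (18583511), with a lower chain median. L3 (18348783) and C1 (17162748) were deeper than L1 (16399627), also with lower chain medians. The trend of deviations with gene length also differed between libraries. At the 10th percentile of gene length (1860 bases), the trend lay above that at the 90th (9574 bases) by 0.12, 0.08 and -0.01 in H1 to H3. It lay above it by 0.06, 0.08 and 0.01 in L1 to L3, and by -0.23, 0.07 and -0.19 in C1 to C3. Chain medians with this trend removed are smaller and are given below for H against C and L against C. By median deviation, cerebellar markers were highest in C1, L3 and L1, where chain subunits were low. These markers were not high in C3, where chain subunits were lowest. Stx1a was lowest in C1, L3 and L1, where chain subunits were low, but high in C3, where they were lowest.

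Chain subunits with short messenger RNAs ranged most widely. Over the 21 subunits the rank correlation between the range over libraries and the length of the principal coding transcript was -0.63, and over all 43 tested genes it was -0.28. Across the 43 genes the difference H minus C fell with the length of the principal coding transcript (rho = -0.59). With the gene length used for FPKM, rho was -0.65, against -0.25 over all tested genes. These are correlations across genes, which are not independent replicates.

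**Figure D2:**
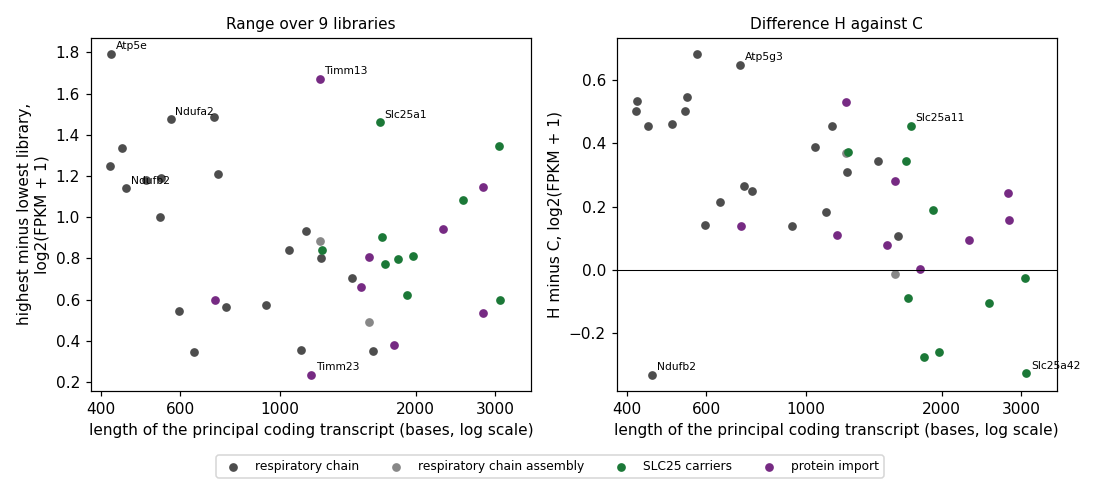
Range over the 9 libraries (left) and difference H minus C (right), both on the log2(FPKM + 1) scale, against the length of the principal coding transcript in bases (log axis), 1 point for each of 41 tested genes, coloured by role. Atp5e, Ndufa2 and Atp5g3 are short and variable, and Ndufb2 is a short transcript that lies below 0 in H minus C.

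The first comparison, H against C, addressed the higher PFOS concentration. Differences are means of log2(FPKM + 1), a scale that compresses changes of weakly expressed genes, and are given with the standard error (SE) from limma. No gene of the table passed an adjusted p of 0.05 in limma (0 of 2226, 0.0%), and the lowest adjusted p was 0.89. At an unadjusted p under 0.05 stood 1 of the 43 tested genes, Slc25a11, against 3.19% of all tested genes. Means were higher in H for 34 of 43 genes, against 52.7% of all tested genes, and the median difference was 0.24, against 0.02 over all tested genes. Among the chain subunits 20 of 21 had a higher mean in H, with a median difference of 0.34, among import genes 9 of 9 (0.14), and among carriers 4 of 11 (-0.05). Chain subunits moved together (median correlation 0.76), so such counts, here and in the comparisons below, are not counts of independent genes. Libraries did not overlap, with H higher, for 4 genes (Slc25a11, Slc25a1, Cox5a and Atp5pb), against 5.35% of all tested genes, and for 0 with H lower, against 4.94%. Without C2 the chain median was 0.55 and 18 of 43 genes stood at an unadjusted p under 0.05, against 12.3% of all tested genes; without C3 the chain median was 0.21, and without H3 it was 2 genes, against 2.61% of all tested genes. With each library's trend with gene length removed the chain median was 0.15, and without C1 and L3 it was 0.28.

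The second, L against C, addressed the lower concentration and shares its C libraries with the first. Again 0 of 2226 genes passed the adjusted threshold (0.0%), with a lowest adjusted p of 0.962. At an unadjusted p under 0.05 stood 2 of 43 genes, Slc25a1 and Slc25a11, against 3.91% of all tested genes. Means were higher in L for 36 of 43 genes (56.3% of all tested genes), among them all 21 chain subunits, by a median of 0.12. Carriers were higher for 7 of 11 (0.07) and import genes for 6 of 9 (0.03), and over all 43 the median was 0.10, against 0.03 over all tested genes. Libraries did not overlap, with L higher, for 2 genes, Slc25a11 and Cox5a (4.99% of all tested genes), and with L lower for 0 (1.66%). The chain median was 0.27 without C2, 0.23 without L3, 0.02 without L2 and 0.00 without C3, and it was 0.01 with the length trend removed. The count at an unadjusted p under 0.05 was 3 without C2 (6.02% of all tested genes), 1 without C1 (6.33%) or L3 (3.55%), and 0 without C3, L1 or any 1 H library (2.02% to 3.37%).

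The third set the 2 concentrations against each other. No gene passed the adjusted threshold (0 of 2226, 0.0%), with a lowest adjusted p of 0.961. None of the 43 genes stood at an unadjusted p under 0.05, against 1.35% of all tested genes. Means were higher in H for 33 of 43 (44.9% of all tested genes), with medians of 0.17 for the chain (19 of 21 higher), 0.09 for import (8 of 9) and -0.06 for carriers (5 of 11). Libraries did not overlap for Cox11 with H higher (2.34% of all tested genes) and for Slc25a29 and Timmdc1 with H lower (6.74%). Without L2 the chain median was 0.27 and 8 of 43 genes stood at an unadjusted p under 0.05, against 8.31% of all tested genes; without C1 it was 1 gene, against 4.27%.

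The test of any difference between the 3 groups (limma F test) called 0 of 2226 genes (0.0%), with a lowest adjusted p of 0.958. It placed 1 of the 43 genes, Slc25a11, at an unadjusted p of 0.027, against 2.11% of all tested genes under 0.05.

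**Figure D3:**
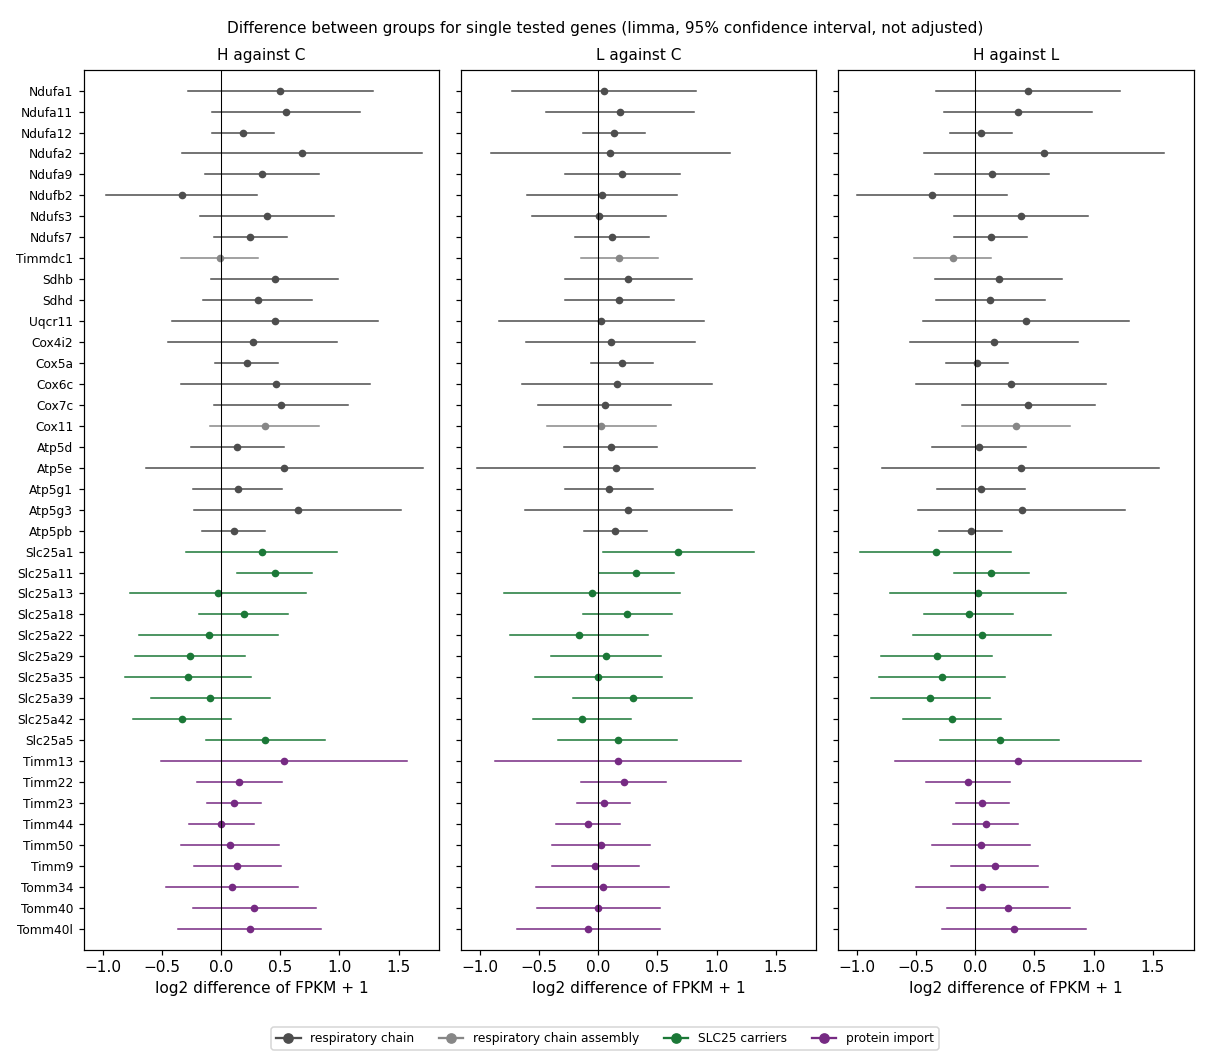
Difference on the log2(FPKM + 1) scale (x axis, points) with its 95% confidence interval from limma, not adjusted (lines), for 41 of the 43 tested genes by role, with H against C on the left, L against C in the middle and H against L on the right. Nearly all intervals include 0, and the chain subunits sit to the right of 0 more often in H against C than the carriers do.

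In complex I, the entry point for electrons from NADH, 8 of the 9 measured subunits had higher means in H than in C. Ndufs3, a core subunit (chromosome 2, 90894634 to 90904827, GRCm38), was at 41.3, 39.1 and 35.3 FPKM in H1 to H3, 25.5, 40.5 and 24.2 FPKM in L1 to L3, and 27.2, 40.2 and 22.6 FPKM in C1 to C3. H1, L2, C2 and H2 were within a narrow band, and L1, L3, C1 and C3 were all lower than H3. Its difference was 0.39 ± 0.25 in H minus C, 0.01 ± 0.25 in L minus C and 0.38 ± 0.25 in H minus L. Ndufa11, an accessory subunit of the membrane arm (chromosome 17, 56717767 to 56722141), was at 5.92, 5.27 and 4.403 FPKM in H1 to H3, 2.62, 5.04 and 4.04 FPKM in L1 to L3, and 2.03, 4.99 and 3.16 FPKM in C1 to C3. C1 was its lowest library and C2 lay within the H range. Its difference H minus C was 0.55 ± 0.27, the largest of the named complex I genes after Ndufa2, with an unadjusted p of 0.079 in limma and an adjusted p of 0.89 over 2226 genes. It rested on 38 to 132 reads per library.

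Ndufa2, an accessory subunit of the peripheral arm, was among the 3 genes with the widest spread within groups. It was at 38.3, 33.9 and 23.7 FPKM in H1 to H3, 17.9, 36.9 and 13.1 FPKM in L1 to L3, and 13.4, 34.9 and 14.8 FPKM in C1 to C3. L2 and C2 were as high as H1 and H2, and L3, C1 and C3 were the 3 lowest. With 0.68 ± 0.44, H minus C had an interval of -0.33 to 1.69. Of its length, 11.5% overlaps Tmco6 on the opposite strand, and the sources used here do not say whether counting used strand.

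Ndufb2, an accessory subunit of the membrane arm (chromosome 6, 39592574 to 39603382), was the 1 chain subunit with a lower mean in H than in C. It was at 2.96, 2.24 and 2.08 FPKM in H1 to H3, 3.16, 2.83 and 4.29 FPKM in L1 to L3, and 5.798, 2.31 and 2.51 FPKM in C1 to C3. C1 was far above every other library, while C2 and C3 lay among the H libraries. The difference was -0.33 ± 0.28 in H against C, and 9.5e-05 without C1. The gene length in the table is 12.4 times its principal messenger RNA, so its FPKM is computed over far more sequence than its coding transcript holds. Of the other subunits, Ndufa1, Ndufa9, Ndufa12 and Ndufs7 had differences of 0.18 (Ndufa12) to 0.50 (Ndufa1) in H against C. Ndufs7, which carries the iron-sulfur cluster that hands electrons to quinone, averaged 21.3 ± 1.92 FPKM in H, 19.3 ± 1.16 FPKM in L and 17.8 ± 2.62 FPKM in C (SD, n = 3 each). Ndufa1 ranged 2.45-fold over the libraries and Ndufa12 1.29-fold.

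Timmdc1, a complex I assembly factor despite its TIM-like name (chromosome 16, 38498347 to 38522663), followed the subunits only in part (r = 0.47 to the chain mean). It was at 8.697, 8.48 and 7.34 FPKM in H1 to H3, 9.71, 9.31 and 9.32 FPKM in L1 to L3, and 8.23, 9.95 and 6.78 FPKM in C1 to C3. All 3 L libraries lay above all 3 H libraries, and the C libraries spanned both. H minus L was -0.19 ± 0.14, and H minus C was -0.01.

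Both complex II genes, which link the citrate cycle to the chain, had higher means in H. Sdhd, a membrane anchor subunit (ENSMUSG00000000171, chromosome 9, 50596357 to 50603812), was at 55.7, 52.5 and 44.98 FPKM in H1 to H3, 43.5, 57.1 and 40.3 FPKM in L1 to L3, and 40.5, 52.1 and 32.4 FPKM in C1 to C3. L2 and H1 were the highest libraries and C3 the lowest. Sdhb, the iron-sulfur subunit (chromosome 4, 140961203 to 140979193), was at 45.1, 37.8 and 37.9 FPKM in H1 to H3, 29.98, 43.01 and 32.8 FPKM in L1 to L3, and 23.2, 42.03 and 25.1 FPKM in C1 to C3. C1 and C3 were the lowest 2 libraries and C2 was above H2 and H3. The differences H minus C were 0.31 ± 0.20 for Sdhd and 0.45 ± 0.23 for Sdhb. For Sdhb the unadjusted p was 0.087 in limma and the adjusted p 0.89.

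Uqcr11, a small subunit of complex III (chromosome 10, 80402997 to 80406830), was the only gene of that complex in the table. It was at 49.6, 55.6 and 44.3 FPKM in H1 to H3, 33.8, 61.3 and 23.7 FPKM in L1 to L3, and 27.6, 59.8 and 28.01 FPKM in C1 to C3. L2 and C2 were its 2 highest libraries, above every H library, and L3 the lowest. The difference H minus C was 0.45 ± 0.38, with an interval of -0.41 to 1.32.

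In complex IV, which reduces oxygen, all 4 subunits had higher means in H than in C. Cox7c, a small membrane subunit (ENSMUSG00000017778, chromosome 13, 86044816 to 86046904), had the highest level of the chain genes per length. It was at 110.5, 117 and 99.5 FPKM in H1 to H3, 78.3, 104 and 61.3 FPKM in L1 to L3, and 74.2, 104 and 58.04 FPKM in C1 to C3. L2 and C2 reached the H range and the other 4 L and C libraries lay below it. The difference was 0.50 ± 0.25 in H minus C, 0.05 ± 0.25 in L minus C and 0.45 ± 0.25 in H minus L. The unadjusted p of H against C was 0.074 in limma and the adjusted p 0.89.

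Cox5a, a matrix-side subunit (chromosome 9, 57521274 to 57532426), showed a different course. It was at 8.899, 9.17 and 7.75 FPKM in H1 to H3, 9.37, 8.47 and 7.704 FPKM in L1 to L3, and 7.32, 7.29 and 7.15 FPKM in C1 to C3. The 3 C libraries lay close together, and every H and every L library lay above them. The difference was 0.22 ± 0.12 in H against C and 0.20 ± 0.12 in L against C, with unadjusted p of 0.097 and 0.12 in limma. Of its length, 12.8% overlaps a non-coding RNA on the opposite strand. Cox6c averaged 36.1 ± 6.904 FPKM in H, 30.1 ± 11.8 FPKM in L and 27.5 ± 13.5 FPKM in C (SD, n = 3 each), on a gene length 7.09 times its principal messenger RNA.

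Cox4i2, an isoform of the fourth subunit that is induced by low oxygen, was near the detection limit. It rested on 12 to 51 reads per library and ranged from 0.805 FPKM in H3 to 3.17 FPKM in H1, so the H group alone covered the whole range. Cox11, which delivers copper to the catalytic core (chromosome 11, 90638173 to 90644931), was at 3.13, 2.68 and 2.49 FPKM in H1 to H3, 1.89, 2.35 and 1.69 FPKM in L1 to L3, and 1.92, 2.77 and 1.23 FPKM in C1 to C3. Every H library lay above every L library, and C2 lay within the H range. The difference H minus L was 0.34 ± 0.20, on 27 to 91 reads per library. Of its length, 48.3% overlaps Tom1l1 on the opposite strand, so its reads cannot be told apart from that gene's without strand.

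All 5 ATP synthase genes had higher means in H than in C, and in all but Atp5pb the C2 library reached the H libraries. Atp5g3 (ENSMUSG00000018770, chromosome 2, 73908447 to 73911326), 1 of the genes for the subunit c ring through which protons pass, was at 83.2, 69.5 and 52.9 FPKM in H1 to H3, 43.4, 78.6 and 38.9 FPKM in L1 to L3, and 35.8, 74.3 and 29.1 FPKM in C1 to C3. H1, L2, C2 and H2 were high, H3 was between, and L1, L3, C1 and C3 were low. It was the member closest to the mean course of the other chain subunits (r = 0.996 over 9 libraries). The difference H minus C was 0.65 ± 0.38, with an interval of -0.23 to 1.52.

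Atp5g1 (chromosome 11, 96068852 to 96075670) encodes the same mature protein as Atp5g3 with another import signal, and moved less. It was at 16.6, 16.5 and 14.3 FPKM in H1 to H3, 14.9, 18.5 and 12.8 FPKM in L1 to L3, and 13.8, 16.9 and 12.3 FPKM in C1 to C3. L2 was the highest library and C3 the lowest, and the range was 1.498-fold, against 2.86-fold for Atp5g3. The gene length of Atp5g1 in the table is 8.24 times its principal messenger RNA, against 3.05 times for Atp5g3. Their levels per length are therefore not comparable.

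Atp5e, the epsilon subunit of the central stalk (chromosome 2, 174461072 to 174464105), had the widest spread within groups of all 43 tested genes. It was at 19.1, 14.04 and 9.99 FPKM in H1 to H3, 7.81, 20.96 and 6.73 FPKM in L1 to L3, and 7.63, 19.01 and 5.33 FPKM in C1 to C3. L2 was its highest library, and H1 and C2 followed at nearly equal levels. Atp5pb, the peripheral stalk subunit b (chromosome 3, 105942698 to 105960099), was the steadiest of the 5. It was at 58.1, 58.3 and 58.8 FPKM in H1 to H3, 53.97, 59.4 and 67.3 FPKM in L1 to L3, and 54.3, 55.7 and 52.5 FPKM in C1 to C3. All 3 H libraries lay above all 3 C libraries, by a difference of 0.11 ± 0.12, and L3 was above them all. Atp5d, the delta subunit of the central stalk, averaged 46.2 ± 4.42 FPKM in H, 45.6 ± 9.16 FPKM in L and 41.9 ± 4.69 FPKM in C (SD, n = 3 each).

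**Figure D4:**
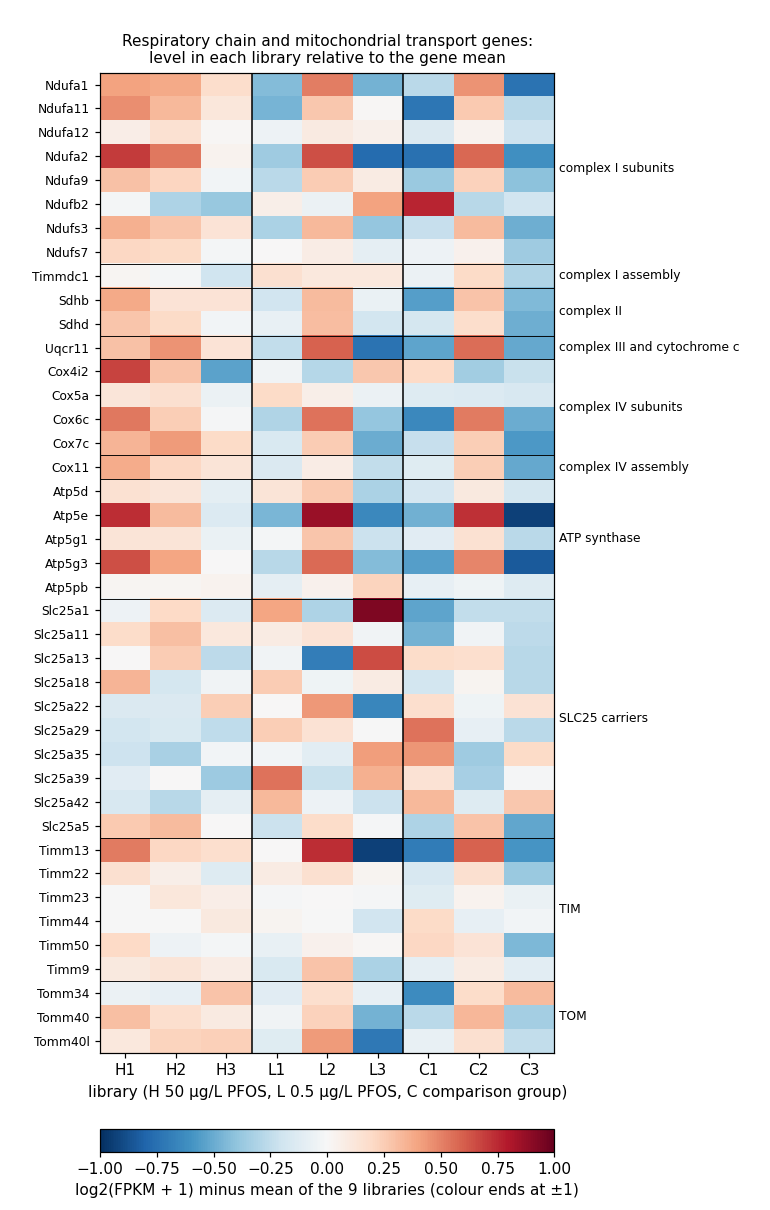
Deviation of 41 of the 43 tested genes, each from its own mean over the 9 libraries, on the log2(FPKM + 1) scale (colour), with genes in rows by role and libraries in columns (H, then L, then C). Most chain subunits are high in H1, H2, L2 and C2 and low in L1, L3, C1 and C3, and Ndufb2, Cox4i2, Atp5pb and several carriers depart from that pattern.

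As a set the carriers did not share the course of the chain, and H means were higher than C means for 4 of 11 tested and lower for 7. Slc25a11, the oxoglutarate-malate carrier of the shuttle that moves reducing equivalents into mitochondria (ENSMUSG00000014606, chromosome 11, 70644196 to 70647479), had the smallest p-value of the set. It was at 43.9, 47.6 and 41.5 FPKM in H1 to H3, 40.8, 42.5 and 37.6 FPKM in L1 to L3, and 27.5, 37.5 and 31.9 FPKM in C1 to C3. Every H and every L library lay above every C library, the nearest being L3 and C2, which differ by little. The difference was 0.45 ± 0.14 in H against C (unadjusted p = 0.01, adjusted p = 0.89 in limma) and 0.32 ± 0.14 in L against C (unadjusted p = 0.048, adjusted p = 0.998). With each library left out in turn it stayed between 0.35 and 0.57 in H against C. Slc25a11 itself went with the chain, with r = 0.73 to the chain mean over 9 libraries, and C2 was its highest C library.

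Slc25a1, the citrate carrier that supplies cytosolic acetyl groups (chromosome 16, 17925223 to 17928219), was at 11.1, 13.4 and 10.4 FPKM in H1 to H3, 15.4, 9.08 and 22.9 FPKM in L1 to L3, and 7.67, 9.55 and 9.56 FPKM in C1 to C3. L3 and L1 were its 2 highest libraries and L2 was below C2 and C3, so the L group spanned most of the range. The difference L minus C was 0.68 ± 0.28 (unadjusted p = 0.04, adjusted p = 0.998 in limma), and 0.38 without L3. In H against C the libraries did not overlap, with a difference of 0.34 ± 0.28.

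Slc25a5, an ADP/ATP translocase (ENSMUSG00000016319, chromosome X, 36795651 to 36798807), was the most abundant gene of the set per length. It was at 124, 129 and 103 FPKM in H1 to H3, 88.8, 117 and 102 FPKM in L1 to L3, and 83.1, 126 and 71.7 FPKM in C1 to C3. Unlike most carriers it followed the chain, with r = 0.94 to the chain mean, and C2 was above H1 and H3. H minus C came to 0.37 ± 0.22. A named pseudogene of Slc25a5 is annotated, and the sources used here do not say how reads shared with it were counted.

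The 2 glutamate carriers went different ways. Slc25a18 (chromosome 6, 120773578 to 120794336) was at 36.01, 24.9 and 27.6 FPKM in H1 to H3, 33.9, 27.4 and 30.002 FPKM in L1 to L3, and 24.7, 28.8 and 23.1 FPKM in C1 to C3. Slc25a22 (chromosome 7, 141429744 to 141437892) was at 26.6, 26.6 and 35.1 FPKM in H1 to H3, 29.6, 40.1 and 18.4 FPKM in L1 to L3, and 33.3, 28.6 and 32.7 FPKM in C1 to C3. H1 and L1 were the 2 highest libraries for Slc25a18, while L2 and H3 were the 2 highest for Slc25a22 and L3 the lowest. The difference L minus C was 0.25 ± 0.16 for Slc25a18 and -0.16 ± 0.26 for Slc25a22, and the second turned to 0.13 without L3.

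Carriers with lower means in H included Slc25a42, a coenzyme A carrier (chromosome 8, 70184340 to 70212305), at 3.61, 3.26 and 3.83 FPKM in H1 to H3, 5.45, 3.97 and 3.44 FPKM in L1 to L3, and 5.44, 3.697 and 5.197 FPKM in C1 to C3. L1 and C1 were nearly equal at the top, C3 was close to them, and C2 lay within the H range. The difference was -0.33 ± 0.18 in H against C and -0.13 ± 0.18 in L against C. Slc25a29, a carrier of basic amino acids (chromosome 12, 108825873 to 108835883), was at 2.798, 2.87 and 2.62 FPKM in H1 to H3, 4.12, 3.76 and 3.304 FPKM in L1 to L3, and 5.28, 3.07 and 2.57 FPKM in C1 to C3. Every L library lay above every H library, and C1 was the highest of all with C3 the lowest. The difference was -0.33 ± 0.20 in H against L and -0.26 ± 0.20 in H against C, the second being -0.02 without C1.

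Slc25a35, a carrier whose substrate is not settled (chromosome 11, 68968131 to 68974365), was at 1.14, 0.981 and 1.42 FPKM in H1 to H3, 1.43, 1.31 and 2.297 FPKM in L1 to L3, and 2.36, 0.932 and 1.82 FPKM in C1 to C3. C1 and L3 were its 2 highest libraries and it ran against the chain (r = -0.80). Of its length, 31.3% overlaps Rangrf on the opposite strand. Slc25a39, which imports glutathione (chromosome 11, 102402985 to 102407946), was at 12.5, 13.7 and 10.4 FPKM in H1 to H3, 20.3, 11.5 and 17.7 FPKM in L1 to L3, and 15.1, 10.6 and 13.5 FPKM in C1 to C3. L1 and L3 were its 2 highest libraries and L2 was among the low ones, with a difference H minus L of -0.38 ± 0.22.

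Slc25a13 (citrin, an aspartate-glutamate carrier) had the widest fold range of the 43 tested genes, 6.43-fold from 0.395 FPKM in L2 to 2.54 FPKM in L3, on 30 to 177 reads per library. Slc25a41 was detected with 0 to 3 reads per library and was not tested.

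All 9 tested import genes had higher means in H than in C, by a median of 0.14, and none had libraries that did not overlap. Timm23, the channel for proteins with an import presequence (ENSMUSG00000013701, chromosome 14, 32180162 to 32201898), was the steadiest gene of the set. It was at 23.3, 25.4 and 24.5 FPKM in H1 to H3, 23.3, 23.5 and 23.3 FPKM in L1 to L3, and 21.4, 23.98 and 22.4 FPKM in C1 to C3. Its whole range was 1.19-fold, and the difference H minus C was 0.11 ± 0.10. Timm44, which ties that channel to the import motor (chromosome 8, 4259731 to 4275913), was at 11.1, 11 and 11.9 FPKM in H1 to H3, 11.3, 11.01 and 9.56 FPKM in L1 to L3, and 12.8, 10.4 and 10.8 FPKM in C1 to C3. C1 was the highest and L3 the lowest library, and the difference H minus C was 0.00 ± 0.12.

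Timm13, a small chaperone of the intermembrane space (chromosome 10, 80899450 to 80900969), was at 14.6, 11.5 and 11.2 FPKM in H1 to H3, 9.87, 17.1 and 4.69 FPKM in L1 to L3, and 5.69, 15.3 and 6.22 FPKM in C1 to C3. L2, C2 and H1 were the 3 highest libraries and L3, C1 and C3 the 3 lowest, and r with the chain mean was 0.88. The difference H minus C was 0.53 ± 0.45, with an interval of -0.51 to 1.57. The other TIM genes, Timm9, Timm22 and Timm50, differed by 0.08 (Timm50) to 0.16 (Timm22) in H against C.

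Tomm34, a cytosolic cochaperone of import (chromosome 2, 164053540 to 164071169), was at 24.3, 23.9 and 31.1 FPKM in H1 to H3, 23.4, 28.6 and 23.9 FPKM in L1 to L3, and 15.98, 28.9 and 31.7 FPKM in C1 to C3. C1 was the lowest library and C3 the highest, so the C group spanned the full range of the 9 libraries. The outer membrane pore gene Tomm40 averaged 9.16 ± 0.746 FPKM in H, 7.52 ± 2.04 FPKM in L and 7.54 ± 2.32 FPKM in C (SD, n = 3 each). Its paralogue Tomm40l averaged 2.77 ± 0.181 FPKM in H, 2.17 ± 1.22 FPKM in L and 2.21 ± 0.461 FPKM in C, but 64.3% of its length overlaps Nr1i3. L2 was the highest library within L for 8 of the 9 import genes, against 37.7% of all tested genes. Tomm20l, with 0 to 7 reads per library, was not tested.

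**Figure D5:**
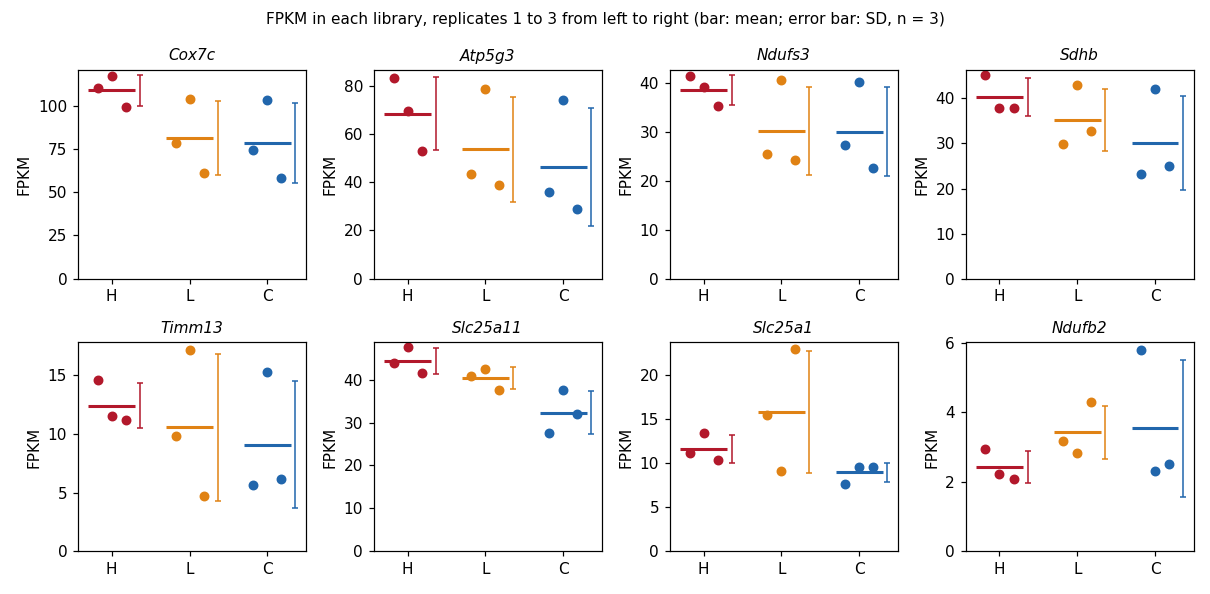
Level in FPKM (y axis) of single genes in the 9 libraries (points), grouped as H, L and C, with group means. In Atp5g3 and Cox7c the L2 and C2 points lie with the H libraries, and in Slc25a11 every C point lies below every H and L point.

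Lists of genes that feed or support the chain were measured only in part. In H against C their median differences ran up to 0.21 among lists with 2 or more tested genes, against 0.34 for the chain subunits, with no test of that difference. The background shares in that comparison were 52.7% of tested genes with a higher mean and 3.19% at an unadjusted p under 0.05. Of 14 mitochondrial ribosome genes 10 had higher means in H (median 0.06), and 2 stood at an unadjusted p under 0.05, Mrpl22 at 14.6 FPKM in H and 9.81 FPKM in C (difference 0.54 ± 0.16) and Mrpl52 at 5.01 FPKM in H and 3.52 FPKM in C (0.40 ± 0.16). Of 6 citrate cycle genes tested (13 listed) 3 were higher and 3 lower (0.06), among them Mdh2, malate dehydrogenase, at 73.3 FPKM in H and 62.3 FPKM in C (0.24 ± 0.12). All 4 tested genes of pyruvate entry (12 listed) were higher (0.21), with Pdk4, a kinase that turns pyruvate dehydrogenase off, at 4.46 FPKM in H and 3.51 FPKM in C (0.26 ± 0.22). Of the 4 tested calcium uniporter and channel genes (9 listed) 3 were higher (0.18), and the outer membrane channel Vdac3 was at 28.96 FPKM in H and 24.9 FPKM in C (0.22 ± 0.13). Chaperones and proteases were higher for 4 of 5 tested genes (11 listed, median 0.13), antioxidants for 2 of 3 (7 listed, 0.05) and genes of coenzyme Q and iron-sulfur supply for 2 of 2 (20 listed, 0.13). Fis1, a mitochondrial fission factor and the 1 tested of 15 listed genes of dynamics and cristae, was at 61.3 FPKM in H and 47.7 FPKM in C (0.39 ± 0.24).

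Of the regulators named above, Yy1 and Gabpa were measured and tested. Yy1 was at 14.1, 15.1 and 14.4 FPKM in H1 to H3, 17.6, 16.2 and 14.2 FPKM in L1 to L3, and 20.7, 17.3 and 17.0 FPKM in C1 to C3. Every H library lay below every C library, and the difference was -0.31 ± 0.12 (unadjusted p = 0.035, adjusted p = 0.89 in limma). Gabpa was at 4.46 FPKM in H and 6.71 FPKM in C (-0.43 ± 0.24), and C1 at 10.2 FPKM was far above its other libraries. Over the 4 tested of 14 listed biogenesis genes 1 was higher in H, Tfam, the packaging factor of mitochondrial DNA, at 9.52 FPKM in H and 8.07 FPKM in C (0.21 ± 0.17), and 3 were lower (median -0.30). Glycolysis genes were higher for 4 of 6 tested (17 listed, 0.14), and the neuronal enolase Eno2, which is also among the pan-neuronal markers, was at 222 FPKM in H and 174 FPKM in C (0.36 ± 0.16).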

How the data were processed

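The authors deposited FPKM values for 2996 genes in 9 libraries, each gene with a length, per the file headers. Their Ensembl gene numbers ran from 1 to 21270, so a gene missing here need not lack expression. The genome build was GRCm38, per the submitters' processing notes; no source used here names an aligner or counter. Multiplied by length, 100% of the values were whole reads within 0.01 reads, which gave the depths; 3 reads on a gene of 1 kb make 0.147 to 0.195 FPKM. Length was the union of GENCODE M21 exons for all 45 genes and exceeded 1.5 times the principal messenger RNA for 24. Gene coordinates are those of GENCODE M21 on GRCm38, since those in the table were the same for only 1 of the 45. Counting by strand is not stated.

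Tested were the 2226 genes above 1 FPKM in 3 or more libraries, 43 of the 45 among them. limma 3.58.1 (R 4.3.3), with trend and robust moderation, fitted the 3 groups to log2(FPKM + 1) over all 9 libraries, leaving 6 residual degrees of freedom. Its two-sided p-values were adjusted by Benjamini-Hochberg over the 2226 genes at a threshold of 0.05. An exact permutation test on 3 against 3 libraries cannot go below 0.1 and was not used. The fit was also run on 3 draws of simulated counts, with 200 genes changed in H and a dispersion of 0.02. These draws held no regional differences and no course shared by genes. They therefore do not show how the fit behaves on these libraries. Members and lists were chosen with earlier results of these data known. Values in every library are given for the 4 genes with the smallest p in each direction of each comparison, the most abundant gene of each role, paralogs of which several are present, and the 3 genes with the widest spread within groups. The closing section gives the alternatives tried. Protein sequences were not used here, and Ndufa2 is given without position. For 2 of the 43 tested genes, which count in all sums and medians, single values are not reported here. Tables were handled in pandas 2.3.3 under Python 3.11.15, and matplotlib 3.10.9 drew the figures.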

Additional observations from a re-analysis of the deposited data

How the results depend on the processing

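In each of the 3 comparisons 0 genes passed an adjusted p of 0.05 in limma under every alternative run. These changed the pseudocount, the low-value filter, the scaling, the model (limma-voom on recovered reads), robust moderation, the groups in the fit, the replicate block, the length trend or the libraries. The F test, rerun in the same way as an addition made after the data were seen but not with only the groups compared, also called 0. At an unadjusted p under 0.05, of the 43 tested genes, L against C gave 0 with quantile normalization (3.86% of all 2226 genes), median of ratios scaling (3.86%), only the groups compared (2.47%) or the length trend removed (3.55%). It gave 1 with limma-voom (3.46%) and 1 without C1 and L3 (5.71%). H against L gave 2 with only the groups compared (3.5%) or the length trend removed (1.62%), and 1 without C1 and L3 (2.88%). The carrier median in L against C was 0.21 with the filter at over 5 FPKM. Leaving out 1 library gave 1 to 18 genes at an unadjusted p under 0.05 in H against C, 0 to 3 in L against C and 0 to 8 in H against L, beside 0.809% to 12.3%, 2.02% to 7.23% and 0.314% to 8.31% of all genes in the same order, and a carrier median of -0.23 to 0.019 in H against L. Ndufb2 in H against C ran from -0.52 to 9.5e-05, and Slc25a22 in L against C from -0.41 to 0.13. Without C1 and L3, Ndufb2 was 9.5e-05 in H against C, and in L against C Slc25a22 was 0.17, Slc25a42 0.070 and Timm44 0.064, each turned in sign. The cause of these changes was not tested. The other single-gene differences followed here kept their direction under every alternative. The other medians moved by less than the spread between single libraries (pooled SD 0.26 for the chain, 0.16 for import, 0.13 for carriers). That yardstick is wide, and some of these medians still changed sign with 1 library left out. Among them, the import median in L against C ran from -0.11 to 0.11, and the carrier median in H against C from -0.08 to 0.02. Depth limits the low genes, as Cox4i2 rested on 12 to 51 reads.

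With the replicate number as a block, 4 of the 43 genes stood at an unadjusted p under 0.05 in H against C (3.86% of all 2226 genes), 1 in L against C (3.28%) and 1 in H against L (1.8%). Nothing states that the numbers pair the samples. Deviations of same-numbered libraries from their group means correlated at -0.51 to 0.68, and those of differently numbered libraries at -0.62 to 0.66. The ranges are alike, so they cannot show whether the numbers pair samples.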

Other observations

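Some carriers ran against the course of the chain, a description chosen after their values were seen. The correlation with the mean of the chain subunits over 9 libraries was -0.80 for Slc25a35, -0.69 for Slc25a42 and -0.54 for Slc25a39, against a median of -0.13 over the 11 tested carriers, 0.71 over the 9 tested import genes and 0.90 over the 21 chain subunits. Among all other tested genes the median was 0.05, and 11.3% exceeded 0.7, as did 17 of 21 chain subunits. The 4 chain subunits that did not were Ndufb2 (-0.48), Cox4i2 (0.10), Atp5pb (0.23) and Cox5a (0.48). These values come from 9 libraries that share depth and tissue content, and they carry no test.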
